A study of Mus musculus with 6 samples.

Results

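The histone cluster genes are the core and linker histone genes that lie side by side in tandem groups on a few mouse chromosomes. They were taken as every row of the gene count table whose symbol starts with Hist1h, Hist2h, Hist3h or Hist4h, which gave 70 of 55335 rows. Of these, 56 carry Hist1 names and lie on chromosome 13, where the pseudogene Hist1h2al, at 51202727 to 51203065, stands apart from the others. Of the rest, 10 lie in the Hist2 cluster on chromosome 3, 3 in the Hist3 cluster on chromosome 11, and 1, Hist4h4, on chromosome 6 (GRCm38, GENCODE M21). By product, 6 encode linker histone H1, 20 H2A, 19 H2B, 12 H3 and 13 H4, and 3 of the rows are annotated as pseudogenes. The table uses the older histone symbols throughout these clusters.

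RNA came from the aorta of wild-type C57BL/6 mice, described as male in the study's methods, at 6 weeks (young, 3 mice) and 6 months (aged, 3 mice), with 1 library per mouse. No other treatment or allele was given for either group. Fat around the vessel had been dissected, about 2 cm of vessel was frozen per mouse, and libraries from a SMARTER mRNA-Seq kit were read as single ends of 50 bases. The comparison asked how the vessel at 6 months differs from that at 6 weeks, which is a step from adolescent to mature adult mice.

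Most cluster histones are made in S phase, when new DNA needs to be packed. Their mRNAs have no introns and, unlike other mRNAs, end in a conserved stem-loop instead of a poly(A) tail. The stem-loop binding protein SLBP holds this hairpin and guides the cut of the 3′ end, and the mRNAs are destroyed when DNA synthesis stops. Polyadenylated transcripts of some cluster genes are also known from cells that have left the cell cycle, and replacement histones such as H3.3 come from ordinary polyadenylated genes outside the clusters. Most smooth muscle cells of the adult vessel wall do not divide.

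The hairpin that defines these mRNAs was searched in the longest annotated transcript of each gene, as a perfect stem of 6 pairs around a loop of 4 bases, with a stem that starts GG, goes on with 3 pyrimidines and ends in T, and a loop that starts TT. It was present in 43 of the 70 members (61.4%), against 8 of 21834 other protein-coding genes (0.0366%). Only annotated bases were searched, so a hairpin past the end of a short model would be missed. A member with no match cannot be said to lack the hairpin. These 8 include the replacement H2A gene H2afx, H2bfm, and Trim17, which overlaps Hist3h2a on the same strand. The windows below show the hairpin in capitals with 5 bases on either side (GRCm38, GENCODE M21 transcripts, written 5′ to 3′ on the strand of the gene). They are given for the abundant members with a hairpin, for the H4 gene with the smallest p, and for an H3 gene with another loop.
Hist1h1c, chr13:23739507-23739532, plus strand: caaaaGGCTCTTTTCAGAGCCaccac
Hist3h2a, chr11:58955167-58955192, plus strand: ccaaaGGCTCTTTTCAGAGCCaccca
Hist1h2bg, chr13:23571838-23571863, plus strand: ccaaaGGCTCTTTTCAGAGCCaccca
Hist1h4h, chr13:23531453-23531478, plus strand: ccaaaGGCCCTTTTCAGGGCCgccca
Hist1h4i, chr13:22040961-22040986, minus strand: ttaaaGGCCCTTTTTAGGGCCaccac
Hist2h3c1, chr3:96247322-96247347, plus strand: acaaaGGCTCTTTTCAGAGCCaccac
Hist1h3e, chr13:23561898-23561923, minus strand: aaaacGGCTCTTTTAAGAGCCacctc
The letters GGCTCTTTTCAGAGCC were the most frequent form, in 3 H1, 10 H2A, 7 H2B and 5 H3 members. All 11 H4 members with a hairpin had another stem, 7 of them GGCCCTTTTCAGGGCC.

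Promoters were read from RefSeq (GRCm38.p6) as 250 bases before to 50 bases after the annotated start, and 62 of the 70 members had one. They are shown for 3 abundant members and for Hist1h4i, the member with the smallest p. The abundant genes Hist1h2bc and Hist2h2be had no entry, and the neighbour genes Hist1h2ac and Hist2h2ac stand in for them, since 14 pairs of an H2A and an H2B gene start head to head, 172 to 305 bases apart. Capitals mark the box CCAAT, the TATA box written as TATAAA, and the octamer core known from H2B promoters, written as TTTGCAT, each on either strand.
Hist1h1c, chr13:23738557-23738856, plus strand: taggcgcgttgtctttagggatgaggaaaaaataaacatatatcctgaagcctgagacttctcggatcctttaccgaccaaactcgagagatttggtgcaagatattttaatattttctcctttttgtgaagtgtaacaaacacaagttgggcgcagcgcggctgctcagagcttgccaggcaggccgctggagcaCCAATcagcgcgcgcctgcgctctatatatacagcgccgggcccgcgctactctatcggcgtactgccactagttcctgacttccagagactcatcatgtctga
Hist1h2ac, spanning the gap to Hist1h2bc, chr13:23683910-23684209, minus strand: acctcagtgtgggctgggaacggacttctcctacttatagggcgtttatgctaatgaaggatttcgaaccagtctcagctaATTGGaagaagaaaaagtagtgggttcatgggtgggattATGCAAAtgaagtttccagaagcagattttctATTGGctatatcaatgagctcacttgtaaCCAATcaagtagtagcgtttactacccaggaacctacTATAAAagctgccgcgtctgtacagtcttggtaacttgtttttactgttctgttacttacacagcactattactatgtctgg
Hist2h2ac, spanning the gap to Hist2h2be, chr3:96220831-96221130, minus strand: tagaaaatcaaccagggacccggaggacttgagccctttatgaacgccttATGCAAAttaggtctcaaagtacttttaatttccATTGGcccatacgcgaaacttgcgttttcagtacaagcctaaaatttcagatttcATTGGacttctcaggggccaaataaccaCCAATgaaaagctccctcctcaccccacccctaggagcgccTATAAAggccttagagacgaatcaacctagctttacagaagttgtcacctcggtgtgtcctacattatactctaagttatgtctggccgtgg
Hist1h2bg, chr13:23571150-23571449, plus strand: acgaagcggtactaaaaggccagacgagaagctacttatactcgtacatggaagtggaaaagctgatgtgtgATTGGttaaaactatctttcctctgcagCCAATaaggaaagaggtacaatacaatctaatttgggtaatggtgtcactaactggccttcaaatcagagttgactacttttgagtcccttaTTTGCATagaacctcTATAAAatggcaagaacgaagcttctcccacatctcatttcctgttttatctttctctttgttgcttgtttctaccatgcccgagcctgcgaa
Hist3h2a, chr11:58954435-58954734, plus strand: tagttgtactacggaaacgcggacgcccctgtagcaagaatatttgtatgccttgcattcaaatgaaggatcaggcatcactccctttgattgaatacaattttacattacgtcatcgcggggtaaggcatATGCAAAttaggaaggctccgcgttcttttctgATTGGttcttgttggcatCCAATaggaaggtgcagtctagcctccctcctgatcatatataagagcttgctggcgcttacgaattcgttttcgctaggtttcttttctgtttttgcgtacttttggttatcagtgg
Hist1h4i, chr13:22041313-22041612, minus strand: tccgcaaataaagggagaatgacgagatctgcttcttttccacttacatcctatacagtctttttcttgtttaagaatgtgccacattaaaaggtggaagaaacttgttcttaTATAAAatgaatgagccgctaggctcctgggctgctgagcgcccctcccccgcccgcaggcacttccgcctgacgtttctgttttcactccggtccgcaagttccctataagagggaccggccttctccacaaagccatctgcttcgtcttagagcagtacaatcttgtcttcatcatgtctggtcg
CCAAT was in 53 of the 62 promoters (85.5%), against 37.3% of 32788 promoters of other genes. It was in every H1, H2A, H2B and H3 promoter read, and in 3 of 12 H4 promoters. TATAAA was in 56.5% of member promoters against 13.5% of the others. TTTGCAT was in 22.6% against 4.59%, with 7 of 18 H2A and 6 of 16 H2B promoters among them and none of the H1 or H3 promoters. Windows of head-to-head neighbours overlap, as those of Hist1h2ae and Hist1h2bg do, so the same site can be counted for both genes. The window of Hist1h2ac holds 3 matches to the first motif and 1 to each of the others. That of Hist1h4i holds 1 match to TATAAA and 0 to the others. Where in the window a match lies was not taken into account. These matches are letters in a window and no measure of binding.

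Total counts per library lay between 31049632 and 45832185, and members took 0.0126% to 0.0220% of them. CPM values are counts scaled to a common total after TMM normalization. Smooth muscle genes were abundant in every library (5 markers summed to 27236 to 39240 CPM). Several libraries stood apart within their group. In young replicate 1 the X-linked RNA Xist was at 305.6 CPM and the Y-linked gene Ddx3y at 1.09, against at most 0.636 and at least 44.8 CPM elsewhere. These levels go against the description of all mice as male. The library was kept under its label, and results without it are given below. Its 5 cardiac muscle markers summed to 311 CPM against at most 56.99 elsewhere. In aged replicate 2 the 5 adipocyte markers summed to 2049 CPM, against at most 743 elsewhere. The 5 endothelial markers summed to 1563 CPM in aged replicate 3 and to 317 to 461 CPM elsewhere. The 5 fibroblast markers summed to 5973 and 4332 CPM in aged replicates 1 and 3 and to at most 2724 CPM elsewhere. Mitochondrial genes took 14.9% to 21.2% of counts in young and 23.1% to 30.4% in aged aorta.

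The member counts in aorta came from a few genes. Of 36658 member counts over the 6 libraries, Hist1h1c, a somatic linker histone, held 43.0% and the H2B gene Hist1h2bc 29.4%. Hist2h2be, another H2B gene, held 10.1%, and the H2A gene Hist3h2a 6.03%, so that these 4 genes held 88.5% and the other 66 members 11.5%. At the other end, 12 members were at 0 in every library, and 8 more had 1 to 3 counts in all, at or under the floor of 3 counts used here. The 12 include Hist1h2aa and Hist1h2ba, which encode testis forms of H2A and H2B, and the H1 gene Hist1h1a. A count of 0 in the deepest library allows up to 0.0619 CPM for counting error alone. Counts were seen in every library for 20 members.

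Per kilobase the order was similar. As FPKM, the deposited value that also divides by gene length, the mean of 6 libraries was 40.9 for Hist1h1c and 37.8 for Hist1h2bc. It was 6.48 for the H2B gene Hist1h2bg, 5.64 for Hist2h2be, 4.25 for Hist3h2a and 2.48 for the H4 gene Hist1h4h. The median of the 16 members with enough counts to be tested was 1.03, so Hist1h1c stood 39.6 times above it.

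**Figure D1:**
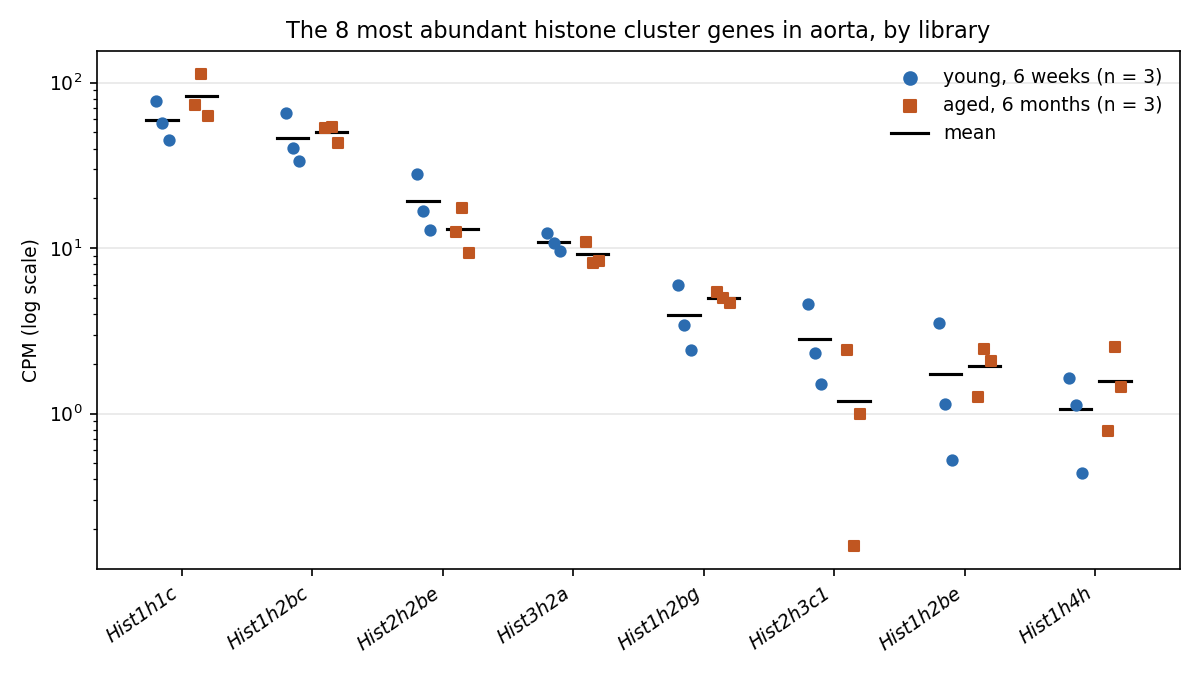
CPM on a log axis in each library for the 8 members with the highest mean CPM (blue circles, young, 6 weeks; orange squares, aged, 6 months; black bar, mean of 3). The groups overlap in all 8 genes, and Hist1h1c reaches its highest level, 112 CPM, in aged replicate 2.

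Hist1h1c, in which aged libraries lay mostly above young ones, was at 77.4, 56.9 and 45.2 CPM in young replicates 1, 2 and 3. It was at 73.5, 112 and 63.1 CPM in aged replicates 1, 2 and 3. The highest value was in aged replicate 2 and the groups overlapped, since young replicate 1 exceeded aged replicates 1 and 3. The gene (ENSMUSG00000036181) is 1 exon at 23738808 to 23740367 on the plus strand of chromosome 13. Its means were 59.8 ± 16.3 and 83.0 ± 25.9 (SD, n = 3 each). On the log2 scale aged aorta was at 0.47 ± 0.28 over young aorta (fold change and standard error), with an adjusted p of 0.589 from edgeR. The same form is used for the genes below. Without young replicate 1 the log2 fold change was 0.71, and without aged replicate 2 it was 0.19.

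Hist1h2bc (ENSMUSG00000018102), on the plus strand of chromosome 13 from 23684199 to 23692908, had 65.9, 40.0 and 33.8 CPM in young and 53.6, 54.0 and 43.0 CPM in aged replicates 1 to 3. The young libraries spread around the aged ones, with young replicate 1 the highest of all. The log2 fold change was 0.11 ± 0.27 (adjusted p = 0.902 from edgeR). It was 0.45 without young replicate 1 and -0.069 without young replicate 3, so its direction was not settled.

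Hist2h2be (ENSMUSG00000068854), on the plus strand of chromosome 3 from 96221119 to 96223738, was at 27.9, 16.8 and 12.9 CPM in young replicates 1 to 3. It was at 12.5, 17.4 and 9.31 CPM in aged replicates 1 to 3. Young replicate 1 was again the highest and the groups overlapped. The means were 19.2 ± 7.78 and 13.1 ± 4.07 (SD, n = 3 each), and the log2 fold change was -0.56 ± 0.35 (adjusted p = 0.603 from edgeR), or -0.18 without young replicate 1. None of its stretches of 50 bases, the length of a read, occurs in another annotated transcript.

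Relative to the other members, these abundant genes shifted against each other. Hist1h1c made up 37.2%, 40.1% and 38.9% of member counts in young replicates 1, 2 and 3, and 44.2%, 52.4% and 44.2% in aged replicates 1, 2 and 3. Hist2h2be made up 13.4%, 11.8% and 11.1% in young and 7.53%, 8.11% and 6.52% in aged replicates 1, 2 and 3. Neither pair of groups overlapped, with the share of Hist1h1c higher and that of Hist2h2be lower in every aged library. Hist1h2bc gave 25.2% to 32.2% with overlap. These shares were singled out after their values were seen and depend on each other, since they add to 100%, so no test was made. In bulk RNA, fewer cells of a type and less RNA per cell cannot be told apart.

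Hist3h2a (ENSMUSG00000078851, chromosome 11, 58954685 to 58956830, plus strand) was at 12.3, 10.8 and 9.56 CPM in young and 11.0, 8.11 and 8.39 CPM in aged replicates 1 to 3. Its log2 fold change was -0.25 ± 0.22 (adjusted p = 0.693 from edgeR), or -0.15 without young replicate 1 and -0.40 without aged replicate 1. Of its 50-base stretches 31.5% lie also in Trim17, an overlapping gene on the same strand that had 2 to 19 counts per library, so reads from this stretch could be counted for either. Hist1h2bg was at 5.97, 3.45 and 2.42 CPM in young and 5.45, 4.98 and 4.64 CPM in aged replicates 1 to 3, with the aged libraries inside the young range. Hist1h2be, an H2B gene, was at 3.55, 1.15 and 0.524 CPM in young and 1.26, 2.46 and 2.09 CPM in aged replicates 1 to 3, so that the aged libraries lay inside the young range. Its annotated span on chromosome 13, from 23583670 to 23621124, runs into the linker histone gene Hist1h1e. Hist1h4h was at 1.63, 1.12 and 0.437 CPM in young and 0.782, 2.52 and 1.45 CPM in aged replicates 1 to 3, again with overlap.

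The ages were compared by quasi-likelihood tests in edgeR over the 16612 genes with enough counts. Of the 70 members 16 passed the filter of this test and 54 did not, and those 54 held 2.45% of member counts. Of the 16, 0 had an adjusted p below 0.05, where the background over all genes tested was 0%, and 0 passed by DESeq2, where it was 2.03%. DESeq2 gave no adjusted p to Hist1h4i, Hist1h2ac, Hist1h2br, Hist1h2bq, Hist1h4m and Hist1h4n, so these could not pass by it. At an unadjusted p below 0.05 there was 1 member, Hist1h4i, against 10.4% of all genes (5.56% higher and 4.82% lower in aged aorta). By log2 fold change 6 of the 16 were higher in aged aorta, where 52.1% of all genes were, and their median was -0.24 where that of all genes was 0.02. Every aged library lay above every young library for 0 of the 16, against 7.74% of all genes, and below for 1, Hist1h2ac, against 8.78%. These counts and medians cover only the members with enough counts.

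The median turned with the libraries included. Without young replicate 1, 20 members passed the filter, 11 were higher in aged aorta and their median log2 fold change was 0.31, and 2 of them had an unadjusted p under 0.05. In that fit 1952 of 17259 genes had an unadjusted p under 0.05 by edgeR, and the median over all genes was 0.046. When aged replicate 2 was left out instead, 19 passed, 6 were higher and the median was -0.39, where that of all genes was -0.011. Of the 16 tested members 9 reached their highest CPM in young replicate 1 and 3 in aged replicate 2. Whether the non-vascular markers in these libraries, or the Xist and Ddx3y levels of young replicate 1, had a part in this was not tested.

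**Figure D2:**
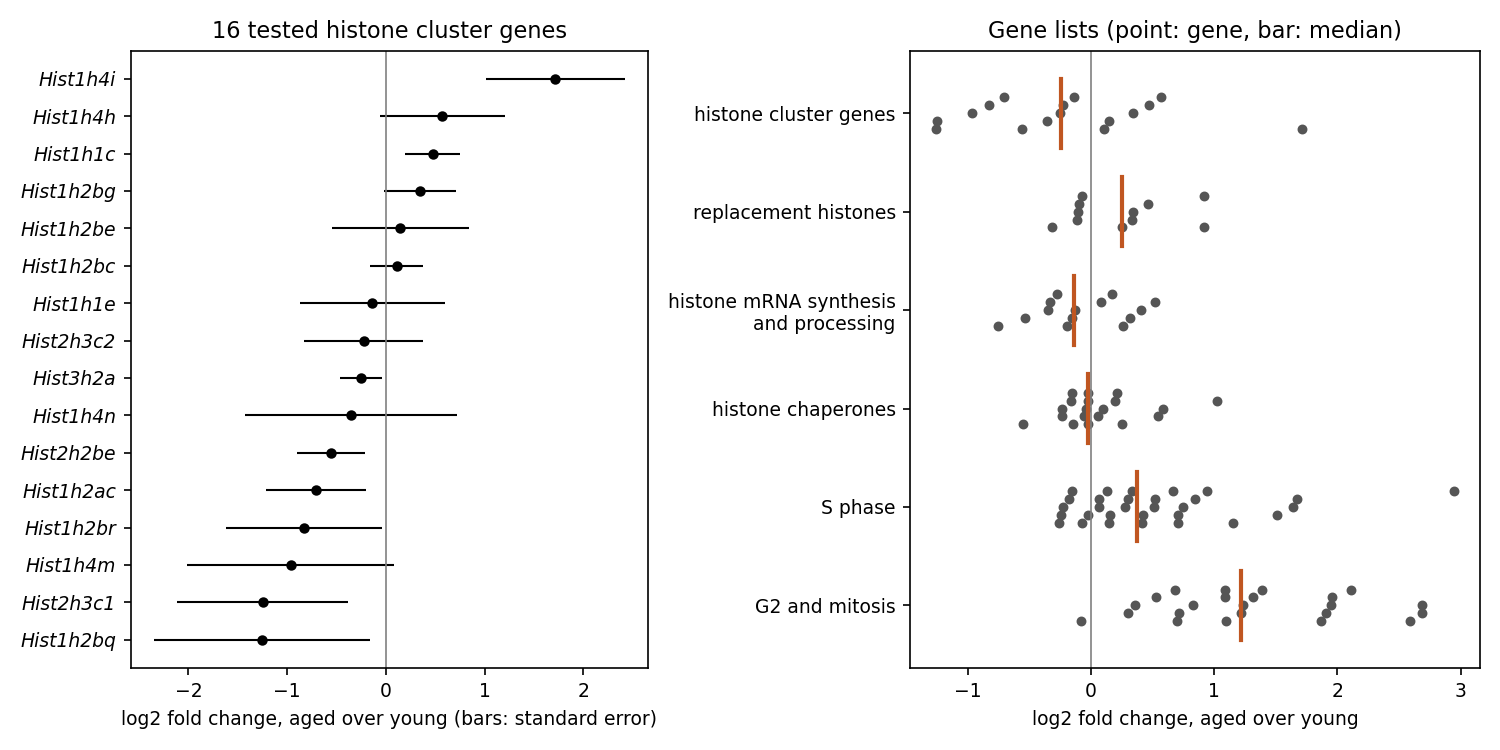
Left, log2 fold change of aged over young aorta for the 16 tested members, with bars of 1 standard error from edgeR. Right, the tested genes of 6 lists as points, with the list median as an orange bar, from -0.24 for the histone cluster genes to 1.22 for G2 and mitosis genes.

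Hist1h4i (ENSMUSG00000060639), an H4 gene on the minus strand of chromosome 13 from 22040636 to 22041362, had 17, 7 and 7 counts in young replicates 1 to 3. It had 9, 45 and 30 counts in aged replicates 1 to 3, which are 0.271, 1.19 and 1.06 CPM against 0.201 to 0.351 CPM in young aorta. Aged replicates 2 and 3 were high and aged replicate 1 lay inside the young range. The log2 fold change was 1.71 ± 0.70 (unadjusted p = 0.0440 and adjusted p = 0.469 from edgeR). It lay between 1.37 and 2.13 with any 1 library left out, and the adjusted p ranged from 0.317 to 0.849 over the alternatives that gave one. DESeq2 gave none.

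Hist1h2ac (ENSMUSG00000069270), an H2A gene that starts 250 bases from Hist1h2bc on the opposite strand, had 44, 25 and 18 counts in young and 17, 17 and 10 counts in aged replicates 1 to 3. That is 0.908, 0.718 and 0.524 CPM in young and 0.512, 0.451 and 0.354 CPM in aged aorta, with the groups next to each other but not overlapping. The log2 fold change was -0.71 ± 0.51 (adjusted p = 0.643 from edgeR).

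Per kilobase, the 2 genes of the Hist1h2ac and Hist1h2bc pair, which share the promoter window printed above, were far apart. The mean FPKM of Hist1h2bc was 179 times that of Hist1h2ac. The ratio was 159, 121 and 139 in young replicates 1, 2 and 3 and 238, 263 and 262 in aged replicates 1, 2 and 3, so it was higher in every aged library. This ratio was chosen after its values were seen and was not tested. Hist1h2bg stood 52.9 times above its neighbour Hist1h2ae, which had 24 counts in all, and Hist2h2be had 3715 counts where its neighbour Hist2h2ac had 14.

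**Figure D3:**
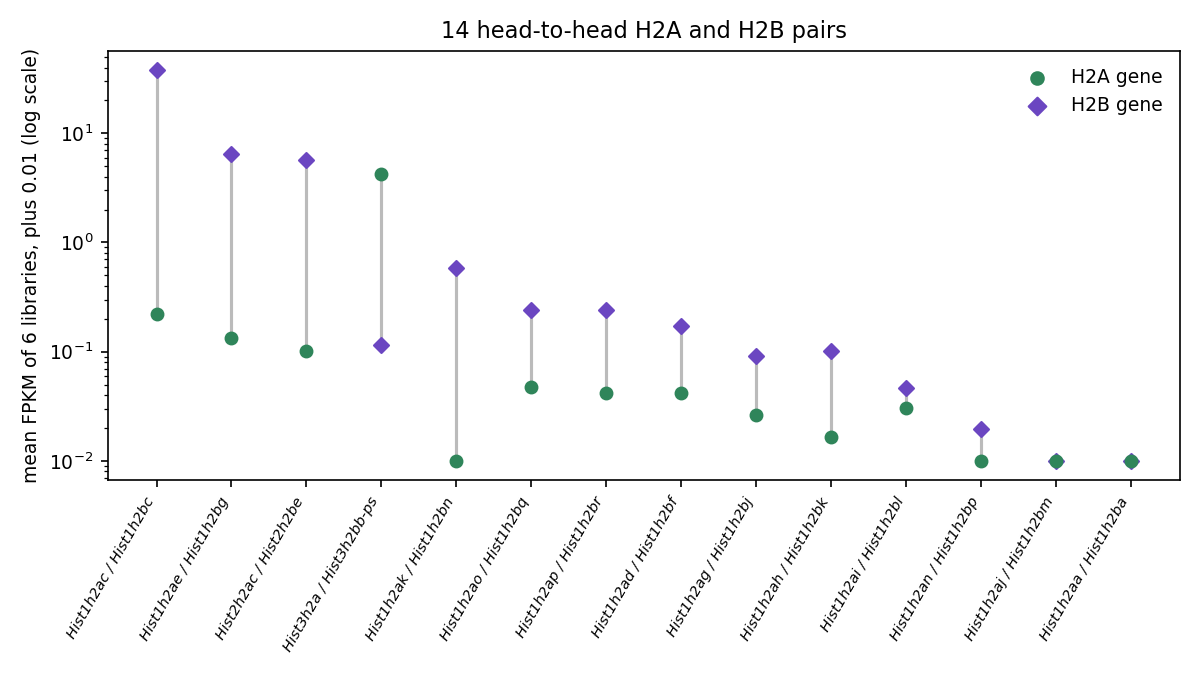
Mean FPKM of 6 libraries, plus 0.01, on a log axis for the H2A gene (green circles) and the H2B gene (purple diamonds) of each of the 14 head-to-head pairs, joined by a grey line. The H2B gene is the higher one in 11 pairs and the H2A gene in 1, that of Hist3h2a, and 2 pairs are at 0.

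Across the 14 head-to-head pairs the H2B gene had the higher FPKM in 11 and the H2A gene in 1, Hist3h2a, whose neighbour Hist3h2bb-ps is a pseudogene. Both genes of the other 2 pairs were at 0. Several of these levels rest on under 20 counts over 6 libraries and on gene lengths that the authors did not state.

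Summed by histone class, H1 members gave 79.3, 58.5 and 45.6 CPM in young and 74.6, 115 and 63.8 CPM in aged replicates 1 to 3. H2B members gave 105, 64.6 and 52.6 CPM in young and 73.9, 81.7 and 60.8 CPM in aged aorta. These 2 classes made up 43.8% and 44.8% of member counts. H2A sums ranged from 10.3 to 13.6 CPM in young and from 11.3 to 11.9 CPM in aged aorta, with 2209 of 2561 counts from Hist3h2a. Hist2h2aa1, a row of the Hist2 repeat described below, made 2.41 and 2.23 CPM of the sums in aged replicates 2 and 3. It had 0 counts in the other libraries. H3 members summed to 7.16, 3.39 and 3.88 CPM in young and 3.61, 1.93 and 2.30 CPM in aged replicates 1 to 3. The means were 4.81 ± 2.05 and 2.62 ± 0.881 (SD, n = 3 each). Of the 856 H3 counts, 469 came from Hist2h3c1 and 276 from Hist2h3c2, which are rows of the same Hist2 repeat. The noncoding row Gm20634, whose sequence covers that of Hist2h3c1, is not in these sums. Gm20634 was at 2.49 and 1.91 CPM in aged replicates 2 and 3 and had 0 counts in the other libraries. H4 members summed to 3.49 ± 0.646 and 3.86 ± 1.40 CPM (SD, n = 3 each). The groups overlapped in every class. Over all 70 members the sums were 155 ± 47.4 and 174 ± 36.5 CPM (SD, n = 3 each), a difference of 0.17 on the log2 scale that lay within the spread between mice. This difference was 0.44 without young replicate 1, 0.0045 without young replicate 3 and -0.0079 without aged replicate 2, and -0.059 as CPM of the raw totals, so its direction was not settled. For H1 members the difference was 0.46, or 0.71 without young replicate 1 and 0.18 without aged replicate 2. For H3 members it was -0.88, or -0.47 without young replicate 1. Whether reads counted for Gm20634 had a part in this H3 difference was not tested. The small differences of the H2B and H4 sums, -0.04 and 0.15, also turned, to 0.31 without young replicate 1 for H2B and to -0.032 without aged replicate 2 for H4.

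**Figure D4:**
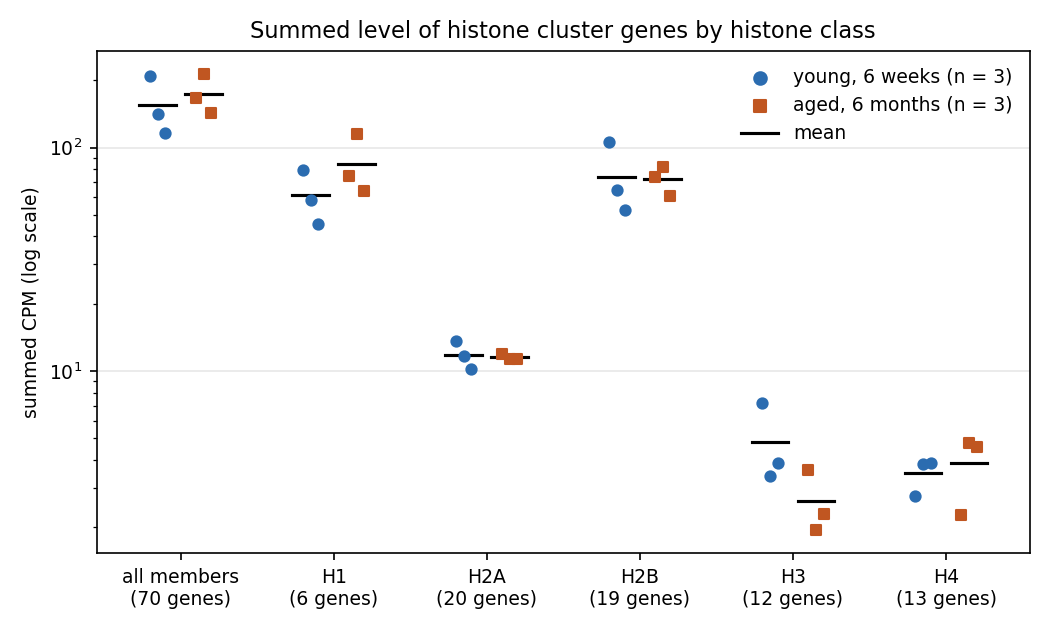
Summed CPM on a log axis in each library, for all 70 members and for each histone class (blue circles, young; orange squares, aged; black bar, mean of 3). H1 and H2B sums lie above 45 CPM in every library and H3 and H4 sums below 7.2, and young and aged points overlap in each column.

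Counts were set beside the annotated 3′ ends of the members. Of the 43 members with a hairpin, 22 have a longest transcript that runs over 100 bases past it (extended), and 21 end within 100 bases of it. The 22 extended members held 57.3% of member counts with a median of 50 counts, and 9 of them were tested. The 21 that end at the hairpin held 2.13% with a median of 10 counts, and 3 were tested. Hist1h1c runs 840 bases past its hairpin and Hist3h2a 1643 bases, while Hist1h4h ends 46 bases after it.

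The 27 members with no match fall into unlike groups. Hist1h2bc, Hist1h2bp, Hist1h2bq and Hist1h2br have a spliced longest transcript and held 30.1% of member counts. Hist2h2be is 1 exon of 2620 bases and held 10.1%. The other 22 have short models of 312 to 743 bases, held 0.404%, and none was tested, while 10 of them were at 0. A hairpin past the annotated end of these models would not have been found. This description compares genes within the same libraries. The kit is an mRNA-Seq kit and the methods speak of mRNA libraries. Whether only polyadenylated RNA was taken up is not stated in the sources used here. The part of such a selection in these levels was not tested. The median length of the longest transcript was 1255 bases in the extended members and 482 bases in those that end at the hairpin, so model length moves with these counts as well.

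Sequence shared between members limits what the other rows can show. For each member, the share of its 50-base stretches that also lie in another annotated gene was counted. The 13 members with under 20% shared held 55.5% of member counts, and the 20 members with 80% or more held 3.07%, of which 7 were at 0 and 5 were tested. How reads that match several genes were treated is not given in the sources used here.

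**Figure D5:**
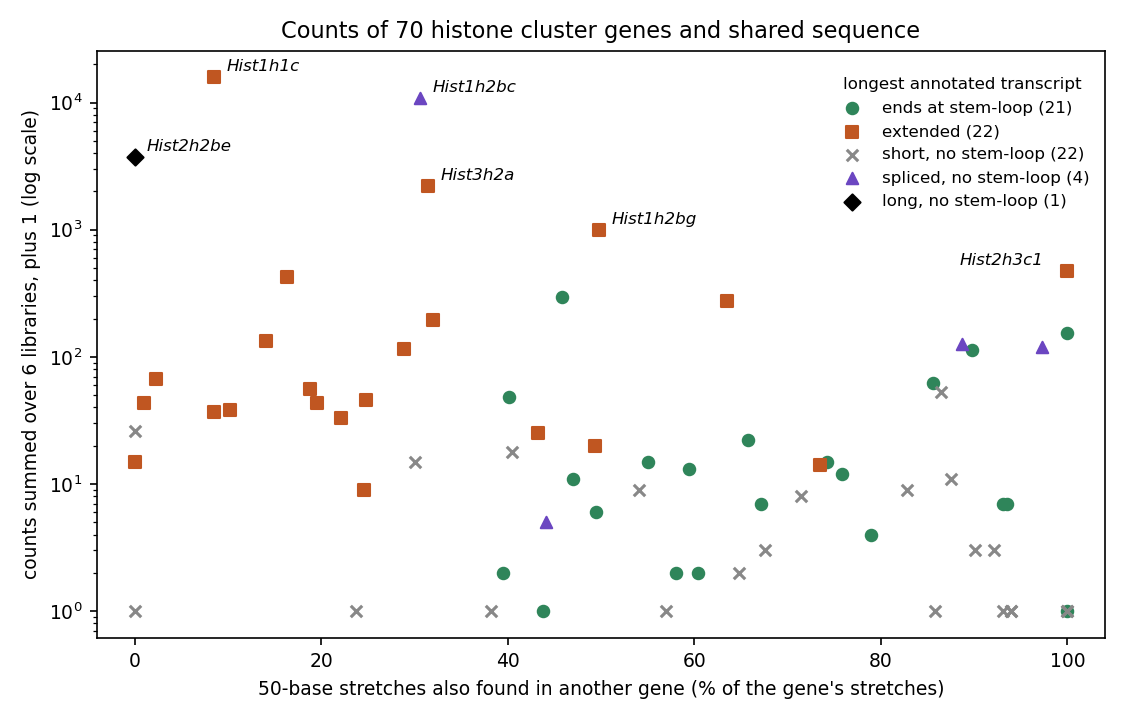
Counts summed over 6 libraries, plus 1, on a log axis against the percentage of 50-base stretches found in another gene, for the 70 members, with symbols for the kind of longest annotated transcript. The 4 most abundant members lie at 31.5% or less, and the short models without a hairpin match (grey crosses) stay at 52 counts or fewer.

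Hist1h2bq and Hist1h2br, spliced H2B genes that share 97.3% and 88.7% of their stretches, had 19, 39, 26, 1, 31 and 2 counts, and 19, 38, 25, 4, 31 and 8 counts, in young and then aged replicates 1 to 3. The rows were nearly equal in 4 libraries and low together in aged replicates 1 and 3. They are not independent, and their sum was 1.49 ± 0.714 CPM in young and 0.716 ± 0.810 CPM in aged aorta (SD, n = 3 each). The H4 genes Hist1h4m and Hist1h4n, which share most of their sequence with each other, summed to 1.08 ± 0.923 and 0.647 ± 0.605 CPM (SD, n = 3 each), and young replicate 3 was the highest.

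The Hist2 cluster holds an inverted repeat with copies of an H2A and an H3 gene on either side, and its rows were split unevenly between libraries. Hist2h3c1 had 222, 81 and 52 counts in young and 80, 6 and 28 counts in aged replicates 1 to 3. Its log2 fold change was -1.25 ± 0.86 (adjusted p = 0.635 from edgeR), or -0.70 without young replicate 1 and -2.31 without aged replicate 1. Hist2h2aa1, which failed the filter, had 0 counts in the young libraries and in aged replicate 1 but 91 and 63 in aged replicates 2 and 3. The noncoding row Gm20634, which overlaps Hist2h2aa1 and holds every 50-base stretch of Hist2h3c1, had the same pattern, with 94 and 54 counts in aged replicates 2 and 3 and 0 elsewhere. Hist2h2aa2 was at 0 throughout, and all of its stretches occur in Hist2h2aa1.

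Summed over Hist2h2aa1, Hist2h2aa2, Hist2h3c1, Hist2h3c2 and Gm20634, this repeat gave 6.73, 2.76 and 2.83 CPM in young and 3.43, 6.41 and 6.09 CPM in aged replicates 1 to 3. The means were 4.10 ± 2.27 and 5.31 ± 1.64 (SD, n = 3 each), so the sum was higher in aged aorta while Hist2h3c1 alone was lower, and both differences lay within the spread between libraries. On the opposite strand, the antisense rows Gm20632 and Gm20633 cover Hist2h2aa2 and Hist2h2aa1, with 222 to 713 and 19 to 356 counts per library. Whether counting used strand is not stated, so reads of a histone gene and of its antisense partner cannot be told apart here. The summing of rows was chosen after the data were seen.

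Among the other members that failed the filter, Hist1h1d, a linker histone gene, had 10, 14 and 4 counts in young and 3, 35 and 0 in aged replicates 1 to 3. Hist1h2bh had 11, 7 and 3 counts in young and 19, 15 and 0 in aged replicates 1 to 3. Both had their lowest count in aged replicate 3. Hist1h1t, the testis linker histone, had 0 counts in young aorta and 7, 7 and 0 in aged replicates 1 to 3. Hist1h3a had 5 counts, all in aged replicate 2, and Hist1h3g had 8, all in young replicate 2. Of these 3, Hist1h1t had counts in more than 1 library, and no fold is given for them.

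Outside the clusters, 11 replacement histone genes were all tested. H3f3a and H3f3b, which both encode H3.3, were at 262 ± 13.3 and 221 ± 18.0 CPM in young and 331 ± 40.5 and 305 ± 38.1 CPM in aged aorta (SD, n = 3 each). Every aged library lay above every young one in both, as in 7.74% of all genes tested. Per kilobase their mean FPKM over 6 libraries was 76.1 and 79.2, against 40.9 for Hist1h1c, the highest cluster gene. The log2 fold change of H3f3b was 0.46 ± 0.16 (unadjusted p = 0.0232 and adjusted p = 0.420 from edgeR) and that of H3f3a 0.33 (adjusted p = 0.515 by edgeR). H1f0, the linker histone of resting cells, was at 113 ± 15.5 and 105 ± 6.67 CPM (SD, n = 3 each). Cenpa, the H3 form of centromeres, was at 0.91 on the log2 scale (adjusted p = 0.507 from edgeR). Of the 11, 6 were higher, where 52.1% of all genes were, and 1 was higher at an unadjusted p below 0.05, against 5.56%. The median log2 fold change of the 11 was 0.25, or 0.094 without aged replicate 1.

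Of 14 genes for the synthesis and processing of histone mRNA, 6 were higher in aged aorta, where 52.1% of all genes were. Of the 14, 0 passed at an unadjusted p below 0.05, against 10.4% of all genes. Their median log2 fold change was -0.14, between -0.17 and -0.094 with any 1 library left out. Every aged library lay above every young one in 1 of the 14, Slbp, and below in 2, against 7.74% and 8.78% of all genes tested. Slbp was at 10.5, 7.73 and 7.81 CPM in young and 11.1, 15.3 and 11.0 CPM in aged replicates 1 to 3. Its log2 fold change was 0.52 ± 0.24 (adjusted p = 0.502 from edgeR). Lsm11, part of the U7 particle that binds downstream of the hairpin, was at -0.54, and Cpsf3, the nuclease that cuts there, at -0.19. Sympk, a scaffold of this machinery, was at -0.15 and Srrt at -0.34.

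Of 19 histone chaperones 8 were higher, where 52.1% of all genes were. Their median log2 fold change was -0.02 (from -0.091 to 0.059 with any 1 library left out, so its sign was not settled). Every aged library lay above every young one in 2 of the 19 and below in 5, against 7.74% and 8.78% of all genes tested. Among the 19, 1 gene was at an unadjusted p below 0.05, against 10.4% of all genes. This was Hjurp, the chaperone of Cenpa, at 95.9 ± 16.6 CPM in young and 65.6 ± 11.6 CPM in aged aorta (SD, n = 3 each), or -0.55 on the log2 scale (adjusted p = 0.438 from edgeR). Chaf1a and Asf1b, which bring new H3 and H4 to replicating DNA, had log2 fold changes of 0.59 and 1.02 (adjusted p = 0.507 and 0.549 by edgeR). Nap1l1, Rbbp4 and Rbbp7, the most abundant of the list, lay between -0.16 and 0.10.

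Genes of the cell cycle phases in and after histone synthesis were read as a list of S phase genes and a list of G2 and mitosis genes. Of 30 S phase genes 23 were higher in aged aorta, 5 at an unadjusted p below 0.05 and 0 lower at that p. Over all genes tested 52.1% were higher, 5.56% were higher at that p and 4.82% lower at that p. The median log2 fold change of the S phase genes was 0.37, or 0.16 without aged replicate 1. Uhrf1, which keeps DNA methylation through replication, had 1.64 (adjusted p = 0.345 by edgeR, 0.00293 by DESeq2). Ccna2, the S phase and G2 cyclin, had 1.51 (adjusted p = 0.372 by edgeR, 0.00769 by DESeq2), and the helicase subunit Mcm2 had 0.71. The most abundant, Mcm6, Dnmt1 and Pcna, lay at -0.23, -0.24 and 0.28. Of 23 G2 and mitosis genes 22 were higher, 11 at an unadjusted p below 0.05, against 5.56% of all genes tested. In 16 of the 23 every aged library lay above every young one, against 7.74% of all genes tested. The median log2 fold change of the 23 was 1.22, and Ccnb2, Top2a and Mki67 had 2.59, 1.96 and 1.91 (adjusted p = 0.339, 0.360 and 0.360 by edgeR).

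Mki67 was at 2.07 ± 0.711 and 7.78 ± 2.54 CPM (SD, n = 3 each). Anln, the most abundant of the 23 with a mean of 46.5 CPM over 6 libraries, was the 1 lower gene, at -0.08 on the log2 scale (adjusted p = 0.916 from edgeR), and turned to 0.053 without young replicate 1 and to 0.016 without young replicate 3. Tpx2, with a mean of 4.08 CPM, was at 0.30 (adjusted p = 0.696 from edgeR). Across the 5 lists edgeR called 0 genes and DESeq2 called 6, all of them in the S phase and G2 and mitosis lists. Over all genes tested edgeR called 0% and DESeq2 2.03%. Markers of macrophages were higher in the same aged libraries, 5 of 5 at an unadjusted p below 0.05 by edgeR, against 5.56% of all genes tested. Their sum was 38.7 to 47.3 CPM in young and 57.01 to 152 CPM in aged aorta. The fibroblast markers were higher in 5 of 5, 3 of them at an unadjusted p below 0.05, against the same 5.56%. Their sums were 1715 to 2724 CPM in young and 5973, 1550 and 4332 CPM in aged replicates 1, 2 and 3. Other marker lists differed as well. Higher in aged aorta were 5 of 5 endothelial, 3 of 3 neutrophil, 4 of 5 adipocyte, 4 of 5 erythroid and 2 of 3 lymphocyte markers tested. Of the smooth muscle markers 0 of 5 were higher, and of the cardiac muscle markers 0 of 4. The part of any of these cell types in the cell cycle values was not tested. The difference between the cell cycle lists and the cluster genes was not tested either.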

How the data were processed

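The authors deposited whole-number counts per gene and FPKM for the 6 aorta libraries. Per the labels' processing notes the build was mm10, and the aligner, counting tool and annotation are not given in the sources used here. The deposited FPKM followed the counts closely from 20 counts upward, but where a gene had 1 count in a library the FPKM was a median of 0.482 times what that count implied (108 values), so single counts may be rounded estimates.

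Counts were filtered (filterByExpr, minimum count 10, minimum total 15), normalized by TMM and tested by quasi-likelihood in edgeR 4.0.16 (R 4.3.3) without covariates, with Benjamini-Hochberg adjustment over 16612 genes. The floors cover counting error only, while SDs and the standard errors of edgeR include variation between mice. DESeq2 1.42.0, limma 3.58.1 on log2(FPKM + 1) or log2(FPKM + 0.1), other filters and scalings, the replicate number as a block and each library left out were the alternatives. The edgeR step was checked on simulated counts.

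Members and lists were chosen with earlier results of these data known. Values per library were given for the 8 members with the highest CPM, the 6 with the smallest p, the 3 with the highest count among those failing the filter, and members at 0 in 1 group with at least 5 counts in the other. From each list the 3 highest by CPM and the 3 smallest by p were named. Coordinates and transcripts came from GENCODE M21 and promoters from RefSeq. Samples are separate mice by the study's methods.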

Additional observations from a re-analysis of the deposited data

How the results depend on the processing

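No setting called a member at an adjusted p below 0.05: the count was 0 under every alternative and with any 1 library left out. By DESeq2 this covers only the members that it gave an adjusted p, and Hist1h4i was not among them. Over all genes edgeR called 0, DESeq2 called 338, and 0 to 110 were called with 1 library left out, the highest without aged replicate 2. In the 5 other lists DESeq2 called 6 genes. The median log2 fold change of tested members, -0.24, became 0.11 over the 9 members with at least 10 counts in every library, and lay between -0.39 (without aged replicate 2) and 0.31 (without young replicate 1). With the replicate number as a block it was -0.0066, with 8 of 16 members higher, and Hist1h1e and Hist1h4n turned to 0.084 and 0.0015. Correlations of same-numbered libraries were 0.0792, 0.134 and 0.128, of which 1 missed the 0.1 that would let the numbers count as pairs. With limma on FPKM, whose median over all genes was -0.12 (pseudocount 1) and -0.19 (pseudocount 0.1), the medians were -0.28 and -0.35 for histone mRNA genes, -0.21 and -0.25 for chaperones, and 0.17 and 0.61 for G2 and mitosis genes, where Hist1h2bc was at -0.059 and -0.060 and Nap1l1 at -0.12 and -0.12. With 1 library left out, the median lay between 1.06 and 1.51 for G2 and mitosis genes, 0.16 and 0.44 for S phase genes, and 0.094 and 0.35 for replacement histones, Hist1h2bc between -0.069 and 0.45, Hist1h1e between -0.59 and 0.26, Hist1h4n between -1.12 and 0.18, Hist1h4m between -2.33 and 0.024, Hist1h2be between -0.27 and 1.22, Hist2h3c2 between -0.63 and 0.36, and Anln between -0.26 and 0.053. The summed H2A level, -0.04 on the log2 scale, was -0.27 by raw totals, -0.28 over members that passed the filter and 0.20 as FPKM. The sum over members that passed leaves out, among others, Hist2h2aa1, which had 91 and 63 counts in aged replicates 2 and 3 and 0 elsewhere. For these results the cause was not tested. With no filter on low counts 58 members were tested, 27 of them higher, with a median of -0.25 and 2 at an unadjusted p below 0.05. In that fit 2026 of 27806 genes were at an unadjusted p below 0.05 by edgeR, and the median over all genes was 0.038.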
